A study of Homo sapiens with 6 samples.

Results

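The clustered protocadherin genes were described in the open chromatin of MCF-10A, an immortalised but non-tumorigenic line of human mammary epithelium. The members were the protein-coding genes of GENCODE on chromosome 5 whose symbol starts with PCDHA, PCDHB or PCDHG, which gave 53 of the 19111 protein-coding genes on the 22 autosomes. The alpha cluster held 15 of them, the beta cluster 16 and the gamma cluster 22, and all are on the plus strand. In hg38 the alpha cluster runs over chr5:140786136-141012347, the beta cluster over chr5:141051374-141249365 and the gamma cluster over chr5:141330514-141512977.

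ATAC-seq, which marks open DNA by the insertion of adapters with a transposase, was run on 6 samples. Wild-type parental cells (WT) were set beside knock-in lines with PIK3CA E545K or PIK3CA H1047R, with 2 samples each and 1 deposited peak list that pools both. PIK3CA encodes the catalytic subunit p110-alpha of phosphatidylinositol 3-kinase. E545K lies in its helical domain and H1047R in its kinase domain. Before the assay the parental line grew with EGF at 20 ng/ml and the knock-in lines grew without it, so genotype and maintenance medium cannot be told apart. The maintenance medium of all 3 genotypes contained horse serum at 5%. Each genotype was then held for 24 h in assay medium, which contained EGF at 0.2 ng/ml and stripped serum at 1%. The labels do not say whether a knock-in line is a single clone. With 1 list per genotype there was no replicate check and no test, and sequencing depth is unknown.

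Clustered protocadherins are cell adhesion proteins that bind the same isoform on a neighbouring cell, and they are best known for giving single neurons a surface identity. In the alpha and gamma clusters each gene has a variable exon with its own promoter, which is spliced to constant exons shared by the whole cluster, whereas the beta genes lack constant exons. In neurons most promoters are chosen at random from cell to cell, under the control of DNA methylation, the insulator protein CTCF, the cohesin ring and distant enhancers. The C-type genes (PCDHAC1, PCDHAC2, PCDHGC3, PCDHGC4 and PCDHGC5) lie at the ends of the variable arrays and follow other rules of expression.

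Most of the promoters had no peak in any list. A peak within 1 kb of the gene start was listed for 13 of 53 members in WT (24.5%), 15 in E545K (28.3%) and 14 in H1047R (26.4%). Over all autosomal protein-coding genes the shares were 65.3%, 65.4% and 66.1%. A peak in all 3 lists was found at 10 members (18.9%, against 63.3% of all genes). A peak in some lists only was found at 8 members (15.1%), where all genes gave 4.69%, and 35 members (66.0%) had none in any list, against 32.0% of all genes. Of the members with a peak in any list, 44.4% had it in some lists only, against 6.9% of such genes over the autosomes. In bulk cells, a peak carried by fewer cells and a peak that is less open in each cell cannot be told apart. A missing peak means that no peak with an area of at least 200 was listed, which is not the same as closed chromatin.

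The 10 promoters listed in all 3 genotypes were PCDHAC1 and PCDHAC2 in alpha, PCDHB13 and PCDHB14 in beta, and PCDHGA1, PCDHGA10, PCDHGB7, PCDHGA12, PCDHGC3 and PCDHGC5 in gamma. PCDHB16, PCDHB10 and PCDHGA11 had a peak in WT alone. PCDHA6, PCDHA12, PCDHB2 and PCDHGB5 had one in both knock-in lists and not in WT, and PCDHGB3 had one in E545K alone. No member had a peak in H1047R alone, in WT and E545K without H1047R, or in WT and H1047R without E545K. The 35 members without a peak were PCDHA1 to PCDHA5, PCDHA7 to PCDHA11 and PCDHA13 in alpha, the other 11 beta genes, and PCDHGA2 to PCDHGA9, PCDHGB1, PCDHGB2, PCDHGB4, PCDHGB6 and PCDHGC4 in gamma.

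The promoter sequences are shown because the members with and without a peak carry nearly the same short element just before the start. The windows were read from hg38 on the plus strand. In the beta genes the capitals mark GGCGCT. The first 5 beta promoters below had a peak in at least 1 list and the last 3 had none.

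PCDHB2 (chr5:141094534-141094583): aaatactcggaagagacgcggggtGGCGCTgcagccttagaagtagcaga

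PCDHB16 (chr5:141182300-141182349): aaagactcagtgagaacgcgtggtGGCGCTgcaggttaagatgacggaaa

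PCDHB10 (chr5:141192289-141192338): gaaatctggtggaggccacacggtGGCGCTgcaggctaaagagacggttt

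PCDHB13 (chr5:141213855-141213904): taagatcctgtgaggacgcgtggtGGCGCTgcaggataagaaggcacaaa

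PCDHB14 (chr5:141223253-141223302): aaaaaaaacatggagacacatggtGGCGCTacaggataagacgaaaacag

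PCDHB3 (chr5:141100383-141100432): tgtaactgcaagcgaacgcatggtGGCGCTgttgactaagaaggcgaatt

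PCDHB11 (chr5:141199520-141199569): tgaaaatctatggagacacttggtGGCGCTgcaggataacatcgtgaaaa

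PCDHB12 (chr5:141208633-141208682): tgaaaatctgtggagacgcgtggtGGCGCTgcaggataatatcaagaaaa

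In the alpha and gamma genes the capitals mark an element of 10 bases that reads CGCT, any base, T, any 3 bases and C. PCDHA6 and PCDHA12 had a peak in both knock-in lists, and PCDHA4 and PCDHA8 had none. PCDHGA10 had a peak in all 3 lists, PCDHGB5 in both knock-in lists and PCDHGB3 in E545K, whereas PCDHGA2 and PCDHGB4 had none.

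PCDHA6 (chr5:140827889-140827942): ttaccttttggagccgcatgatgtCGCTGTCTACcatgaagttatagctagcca

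PCDHA12 (chr5:140875236-140875289): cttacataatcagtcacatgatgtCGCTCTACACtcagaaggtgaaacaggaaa

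PCDHA4 (chr5:140806971-140807024): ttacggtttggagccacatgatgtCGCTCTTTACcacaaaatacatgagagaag

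PCDHA8 (chr5:140841122-140841175): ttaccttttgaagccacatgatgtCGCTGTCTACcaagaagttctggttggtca

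PCDHGA10 (chr5:141412923-141412976): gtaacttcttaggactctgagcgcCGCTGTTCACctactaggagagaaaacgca

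PCDHGB5 (chr5:141397855-141397908): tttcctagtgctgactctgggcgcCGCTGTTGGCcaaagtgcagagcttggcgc

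PCDHGB3 (chr5:141370154-141370207): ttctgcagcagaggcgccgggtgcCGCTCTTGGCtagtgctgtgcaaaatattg

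PCDHGA2 (chr5:141338695-141338748): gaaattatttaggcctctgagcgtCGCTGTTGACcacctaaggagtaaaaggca

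PCDHGB4 (chr5:141387609-141387662): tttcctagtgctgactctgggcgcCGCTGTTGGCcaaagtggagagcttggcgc

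Each motif was sought on both strands in the window from 250 bases before to 50 after the start, and a match is a description of letters only. GGCGCT was in 14 of 16 beta promoters (87.5%), 1 of 15 alpha promoters and 8 of 22 gamma promoters, against 25.1% of all autosomal promoters. It was in 5 of the 5 beta promoters with a peak and in 9 of the 11 without. The longer word GGTGGCGCTG, which contains GGCGCT and was picked as the word of 10 letters that most beta promoters share, was in 13 of 16 beta promoters. It was in no alpha or gamma promoter and in 76 of 19111 promoters over the autosomes (0.398%).

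The CGCT element, added after the promoters were read, was in 12 of 15 alpha, 16 of 22 gamma and 1 of 16 beta promoters, against 14.8% of all. The word of 12 letters that most alpha promoters share, CATGATGTCGCT, overlaps it and was in 9 of 15 alpha promoters. These 9 were also the only promoters of all 19111 to hold it. Of these 9 alpha genes, 2 had a peak in some list and 7 had none. The CGCT element was in 4 of 4 alpha promoters with a peak and in 8 of 11 without. In gamma it was in 6 of 9 with a peak and in 10 of 13 without. The canonical starts of PCDHA9, PCDHA11 and PCDHGA8, which lacked the CGCT element, lie past the window searched.

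The elements sat close to the start. On the gene's strand and from 150 bases before to 50 after the start, 14 beta genes held theirs, with a median position of -55. In alpha 11 genes held theirs at a median of -42, and in gamma 16 at a median of -48. Of the 18 members with a promoter peak, 14 had the element, as did most of the members without a peak. At these 14, the peak covered the element in each list that had one. The element was sought only near the start, where most of these summits also lie. The cover and the distances below thus follow in part from that window. The summit, the highest point of the peak, was within 100 bp of the element in 8 of 9 such peaks in WT, 11 of 12 in E545K and 9 of 11 in H1047R. The exceptions were PCDHAC2 in all 3 lists and PCDHA6 in H1047R, where the summit lay 287 bp after the element.

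**Figure D1:**
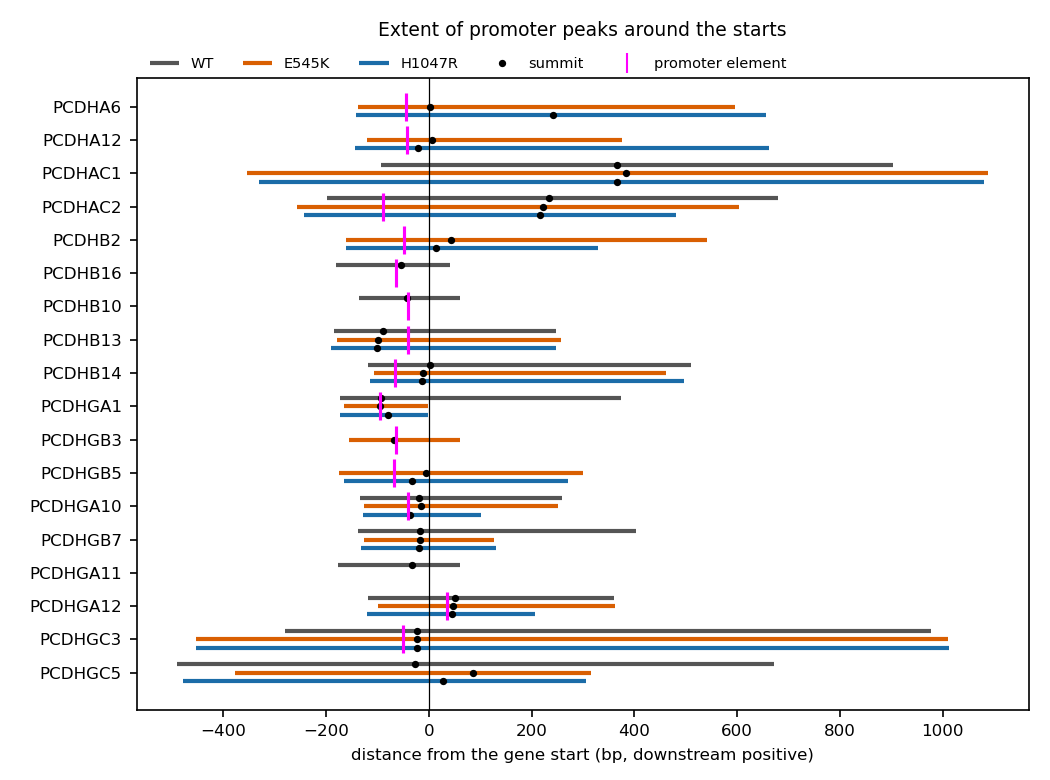
Extent of each promoter peak (bars, coloured by list) by distance from the gene start in bp for the 18 members with a peak, with dots at the summits and vertical ticks at the promoter element where one was found. PCDHGC3 has the widest peak in each list (1259, 1465 and 1467 bp in WT, E545K and H1047R), and the peaks of genes outside the C-type are at most 807 bp wide and lie at the start.

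The alpha cluster had the fewest listed promoters in WT. There the 2 C-type genes had a peak and 0 of the other 13 did, whereas each knock-in list had 2 of these 13. PCDHA6 (ENSG00000081842.18, start at position 140827958 of chromosome 5) encodes an alpha isoform of the ordinary array. Its promoter peak had an area of 368 in E545K and 669 in H1047R, with a summit -log10 p of 2.41 and 3.04, and none was listed in WT. PCDHA12 (ENSG00000251664.5, start at 140875302) had an area of 401 in E545K and 462 in H1047R, again with none in WT. Both areas were low within their lists, since PCDHA6 stood at the 3.62 percentile of promoter peaks in E545K and at 8.03 in H1047R, and PCDHA12 at 4.4 and 4.79.

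PCDHAC1 (ENSG00000248383.5, start at 140926299) and PCDHAC2 (ENSG00000243232.6, start at 140966470) are the C-type genes of alpha and were listed in each genotype. PCDHAC1 had areas of 2704 (WT), 3435 (E545K) and 3638 (H1047R), at the 36.9, 55.6 and 50.5 percentile of promoter peaks. PCDHAC2 had an area of 810, 1326 and 1268 in the same order, at the 9.49, 18.4 and 14.5 percentile. The area is not scaled between lists, so these values place each gene within its own list. In each list PCDHAC1 had the largest promoter peak of the alpha cluster. Its summit lay 366 bp past the start in WT and H1047R and 384 bp past it in E545K.

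The PCDHAC1 peak holds a match to the core of the CTCF motif (CC, 3 bases, AG, 2 bases, GGC, 1 base, C) 313 bp past the start and within an exon. The match is shown in capitals because CTCF binding at variable exons is a known feature of the clusters. The H1047R peak of PCDHA12 also holds an exact match, at 140875929-140875942, and others lie at the gamma end, described below.

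PCDHAC1 CTCF core (chr5:140926604-140926633, plus strand): tctctgcaCCCCTAGGCGGCGCtgcgctcc

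The beta cluster had 4 listed promoters in WT and 3 in each knock-in list, among 16 genes. PCDHB2 (ENSG00000112852.7, start at 141094606) had an area of 757 in E545K and 708 in H1047R and no peak in WT. These were the largest beta promoter peaks of both knock-in lists. PCDHB16 (ENSG00000272674.4, start at 141182387) had an area of 252 in WT, and PCDHB10 (ENSG00000120324.9, start at 141192353) had 229, with neither listed in a knock-in. These 2 peaks were 223 and 196 bp wide and stood at the 1.22 and 0.698 percentile of promoter peaks in WT, just above the smallest area in the list.

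PCDHB13 (ENSG00000187372.11) and PCDHB14 (ENSG00000120327.7) were the only beta genes listed in each genotype. PCDHB13 had areas of 437 (WT), 412 (E545K) and 490 (H1047R), with widths between 434 and 439 bp. PCDHB14 had an area of 779, 488 and 630, and its peak also lies within 1 kb of the start of the overlapping coding gene model ENSG00000279983. The first gene, PCDHB1, and the last, PCDHB15, had no peak in any list.

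Of the 22 gamma genes, 7 had a listed promoter in WT, 8 in E545K and 7 in H1047R. By subfamily, the A-type genes had 4, 3 and 3 of 12, the B-type genes 1, 3 and 2 of 7. PCDHGA1 (ENSG00000204956.6), the first gene of the cluster, had areas of 373 (WT), 260 (E545K) and 315 (H1047R). PCDHGA10 (ENSG00000253846.3) had an area of 556, 276 and 313, and PCDHGA12 (ENSG00000253159.3) had 623, 372 and 459. PCDHGB7 (ENSG00000254122.3) had the largest gamma promoter peak outside the C-type genes in WT and H1047R, at areas of 869 (WT), 618 (E545K) and 633 (H1047R). In E545K that place was taken by PCDHGB5. All of these values are in the lowest 11% of promoter peaks of their lists.

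PCDHGB5 (ENSG00000276547.2, start at 141397947) had an area of 716 in E545K and 480 in H1047R and was not listed in WT. PCDHGB3 (ENSG00000262209.3, start at 141370242) had an area of 339 in E545K alone. PCDHGA11 (ENSG00000253873.6, start at 141421047) had an area of 217 in WT alone, at the 0.417 percentile of promoter peaks, the lowest of any member. The promoter elements of PCDHGB5 and PCDHGB4 printed above are nearly identical, and 83.4% and 84.5% of the 31-base words in the 300 bp before these starts occur once in hg38.

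The gamma C-type genes differed among themselves. PCDHGC3 (ENSG00000240184.7) had the largest promoter peak of all members in each list, at areas of 3669 (WT), 4032 (E545K) and 4401 (H1047R). It was also the sole member above the median of promoter peaks in WT, at the 53.2 percentile. PCDHGC5 (ENSG00000240764.4), the last gene, had areas of 1068 (WT), 240 (E545K) and 836 (H1047R). The E545K peak was thus among the smallest of its list, at the 0.951 percentile, with a summit -log10 p of 2.13. PCDHGC4, which lies between them, had no peak in any list.

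**Figure D2:**
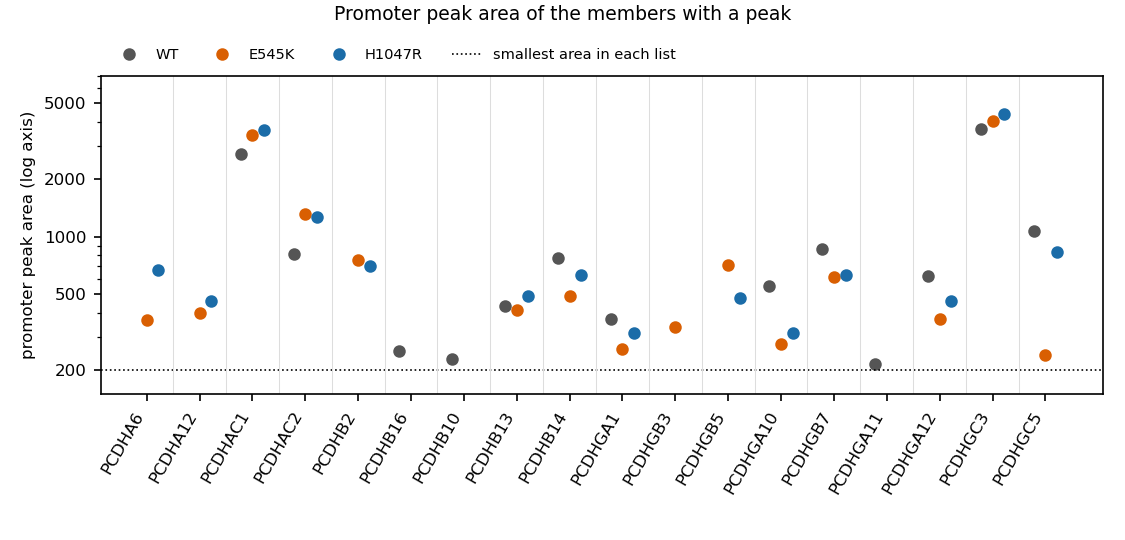
Area of the promoter peak (log axis) for each of the 18 members with a peak, in WT, E545K and H1047R, with a dotted line at the smallest listed area of 200. There is 1 point per gene and list, with no error since each list pools both samples. PCDHAC1 and PCDHGC3 have areas of 2704 to 4401, and PCDHB16, PCDHB10 and PCDHGA11 lie next to the line.

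Each knock-in list was also set beside WT by direction. A peak in E545K and not in WT was found at 5 members (9.43%), against 1.68% of all genes, and in WT and not in E545K at 3 (5.66%), against 1.49%. A peak in H1047R and not in WT was found at 4 members (7.55%), against 1.85%, and in WT and not in H1047R at 3 (5.66%), against 1.04%. Both comparisons share the WT list. Between the knock-in lists, 1 member had a peak in E545K and not in H1047R (1.89%, against 1.34%) and 0 the reverse, against 1.96%. The members' shares were above the background in each comparison with WT and near it for E545K without H1047R. When each list was reduced to the length of the shortest, the 5 members in E545K and not in WT (against 386 of 19111 genes) and the 4 in H1047R and not in WT (against 309) were still counted. In that setting only 1 member was in WT and not in E545K, against 203 of 19111 genes, and 1 in WT and not in H1047R, against 229, so these counts no longer stood apart from the background.

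The promoter peaks of the members were small and narrow. Their median area was 623 in WT, 412 in E545K and 631 in H1047R, where all genes with a promoter peak gave 3479, 3111 and 3605. Their median width was 542, 496 and 552 bp against 1434, 1439 and 1483 bp. Each member outside the C-type genes had an area under 1000, that is 9, 11 and 10 peaks, where 11.8%, 13.3% and 11.6% of all promoter peaks fell under that value. The summits of these peaks were within 200 bp of the start in 9 of 9, 11 of 11 and 9 of 10 cases, against 64.0%, 63.3% and 63.2% over all genes. The members in some lists only had areas from 217 to 757, and the part of low area in the counts by direction was not tested.

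With only peaks of summit -log10 p of at least 4, members in some lists numbered 5, against 890 of 19111 genes, and 0 of the 8 members listed above kept their pattern. With only the upper 50% of each list by area, 1 of the 8 kept it, PCDHB2, which was then still in both knock-in lists and not in WT. The members lost at equal list length were PCDHB10 and PCDHGA11, which left PCDHB16 as the member in WT and in neither knock-in list.

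The promoters also differed in base composition. Over the window from 250 bases before to 50 after the start, the median GC content was 38.7% in members and 60.3% in all genes. The C-type genes were richest, with 66.0% in PCDHAC1, 62.3% in PCDHAC2, 59.7% in PCDHGC3, 55.7% in PCDHGC5 and 55.3% in PCDHGC4. The ratio of observed to expected CpG had a median of 0.555 in members and 0.703 in all genes. Members with a peak in any list had a median GC content of 43.0% and those with none 38.7%.

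Low GC content went with fewer peaks in other genes too. Among the 4409 genes under 50% GC, 34.3% had a promoter peak in WT, 33.1% in E545K and 35.2% in H1047R. The 46 members under that limit had one in 9 (19.6%), 11 (23.9%) and 10 (21.7%) cases. A peak in some lists only was found at 8 of these 46 members (17.4%) and at 5.24% of the genes under 50% GC. Of the 7 members at or above 50%, 4 had a peak in each list (57.1%), where such genes gave 74.5%, 75.2% and 75.3%. The part of base composition in the low share was not tested further.

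**Figure D3:**
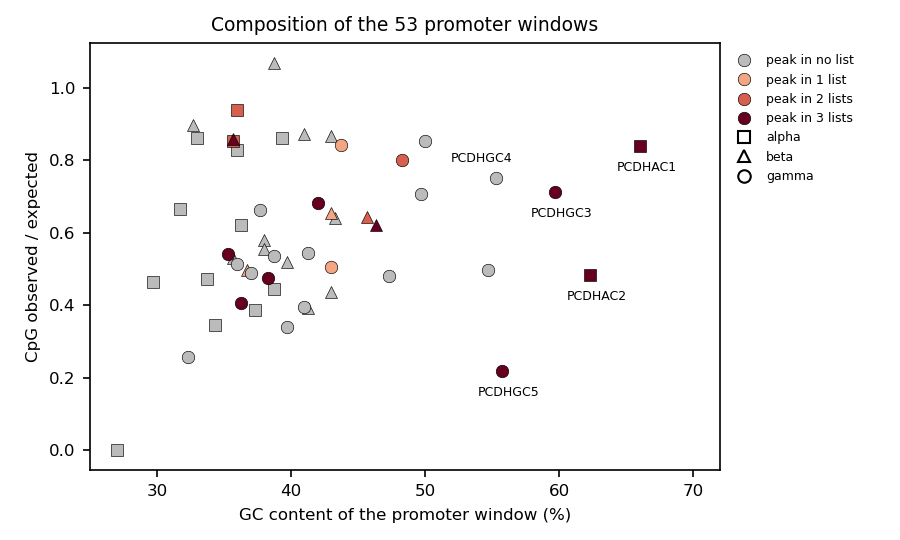
GC content (percent, horizontal axis) and ratio of observed to expected CpG (vertical axis) of the promoter window of the 53 members, with squares for alpha, triangles for beta and circles for gamma, coloured by the number of lists with a peak. PCDHAC1, PCDHAC2 and PCDHGC3, at 66.0%, 62.3% and 59.7% GC, had a peak in all 3 lists, whereas PCDHGC4 at 55.3% had none.

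Sequence with more than 1 copy in hg38, which bears on where reads can be placed, made up a small part of most promoters. Whether the other copies lie in paralogues was not checked. Of the 31-base words within 1 kb of a start, a median of 97.1% occur once in hg38, with the lowest shares at PCDHB8 (56.0%) and PCDHB13 (56.4%). PCDHB13 had a peak in all 3 lists and PCDHB8 in none. In the 300 bp before the start the median was 100.0% and the lowest share 82.7%. None of the 6 pseudogenes of the clusters had a promoter peak.

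Other motifs were sought in the same promoter windows. TATAAA was in 13 of 53 members (24.5%, against 10.9% of all promoters), and 7 of these were among the 15 alpha genes. These 7 include PCDHA9 and PCDHA11, whose canonical starts lie past the window. Median GC content was 38.7% in members and 60.3% in all genes, and no TATAAA share at matched GC content was computed. CCAAT was in 23 (43.4%, against 35.6%), the AP-1 site TGANTCA in 3 (5.66%, against 6.38%) and the CTCF core in 1 (1.89%, against 4.3%). Only exact matches to the core were counted. The beta word GGTGGCGCTG shares letters with part of the core, as in the DIAPH1 sequence below. A low count of exact matches therefore does not show that CTCF sites are lacking.

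With promoters and flanks included, the region of the clusters was about as rich in peaks as the autosomes as a whole. Over the 3 clusters and 50 kb on either side (827 kb), 31 peaks were listed in WT, 31 in E545K and 30 in H1047R. This is 37.5, 37.5 and 36.3 per Mb, against 34.4, 31.1 and 37.1 over the autosomes. The peaks covered 2.76%, 3.24% and 3.24% of the region, against 2.34%, 2.42% and 2.52%. The flank past gamma holds the DIAPH1 peaks described below, among them the largest of the region in each list. Within the clusters the cover differed, with 1.88%, 2.74% and 2.77% in alpha, 0.86%, 0.977% and 0.78% in beta and 3.85%, 3.99% and 3.81% in gamma.

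Joining peaks that overlapped across the lists gave 37 regions. Of these, 18 were member promoters, 18 lay away from coding promoters and 1 was the promoter of TAF7. That gene lies between beta and gamma and encodes a subunit of the general factor TFIID. TAF7 had an area of 3449, 3958 and 3184 in WT, E545K and H1047R. Of the 18 regions away from coding promoters, 12 were in all 3 lists, against 10 of the 18 member promoters.

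Some stretches without a peak spanned many member starts. In WT the longest ran 190 kb and held the starts of PCDHA1 to PCDHA13, and 1.54% of gaps between peaks in that list were at least as long. In E545K and H1047R the longest ran 119 kb over 11 beta starts, from PCDHB3 to PCDHB12 by position, and 4.49% and 2.98% of gaps were as long. Another of about 96 kb in each list held the start of PCDHB15 alone.

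The peaks away from promoters lay mainly past the variable exons, where known enhancers of the clusters also lie, although no peak was matched to one by position here. In the alpha cluster, chr5:140916341-140917017 lay 9.62 kb before the PCDHAC1 start and had areas of 229 (WT), 755 (E545K) and 731 (H1047R). Past the variable exons, 3 regions lay in the intron before the last alpha constant exon. The first, chr5:140996151-140996522, had an area of 234 in WT and was not listed in a knock-in. The second, chr5:141001358-141002502, had an area of 754, 1024 and 1112 and the third, chr5:141003813-141004726, had 2793, 3012 and 3084. The third was the largest alpha peak away from a promoter in each list. It holds an AP-1 match, shown in capitals because AP-1 is a factor common at epithelial enhancers, 62 bp before its WT summit.

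Alpha constant intron AP-1 (chr5:141004235-141004289, plus strand): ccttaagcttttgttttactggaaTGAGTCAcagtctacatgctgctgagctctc

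Between alpha and beta, chr5:141039698-141041467 lay 10.8 kb before PCDHB1 at the start of the non-coding gene ENSG00000288892. It held 2 peaks in WT, with areas of 566 and 1936, and 1 peak in each knock-in list, with 3272 in E545K and 2857 in H1047R. All 3 lists thus had an accessible region there, cut into separate peaks in WT.

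At the gamma end, chr5:141508197-141509927 lay before the last gamma constant exon and had areas of 1980 (WT), 1717 (E545K) and 3107 (H1047R). A smaller region over that exon, chr5:141511925-141512875, had 540, 687 and 828. Its peak in each list holds an exact match to the CTCF core on the minus strand, at 141512501-141512514. Past the cluster, 6 regions in or overlapping DIAPH1, which encodes an actin-nucleating formin, were in all 3 lists. The nearest, chr5:141513628-141515409, had an area of 4261, 3817 and 6636. The region chr5:141524588-141525453 had 1581, 1598 and 1943 and holds a CTCF core on the minus strand in an intron of DIAPH1, 35811 bp past the last gamma start. It is shown on that strand, with the core in capitals, and the letters contain the word GGTGGCGCTG of the beta promoters.

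DIAPH1 intron CTCF core (chr5:141524872-141524925, minus strand): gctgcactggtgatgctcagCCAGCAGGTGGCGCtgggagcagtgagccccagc

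Around summits of the region, GGCGCT was within 100 bp in 12 of 31 peaks in WT (38.7%), 11 of 31 in E545K (35.5%) and 13 of 30 in H1047R (43.3%). Over all peaks of the lists the shares were 7.32%, 7.8% and 6.84%. TGANTCA was within 100 bp of 9.68%, 12.9% and 13.3% of the region's summits, against 34.4%, 32.5% and 36.9% of all. Member promoters made up 13, 15 and 14 of the region's peaks in WT, E545K and H1047R. In the promoter windows, 43.4% of members held GGCGCT and 5.66% held TGANTCA. No share over promoter peaks alone was computed, so the kind of peak was not matched in these comparisons.

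Peaks without a partner, that is with no overlap of at least 1 bp in the other list, were counted over the whole region. In E545K, 7 of 31 had no partner in WT (22.6%, against 12.6% of the list), and in WT 6 of 31 had none in E545K (19.4%, against 20.3%). In H1047R, 5 of 30 had no partner in WT (16.7%, against 17.9%), and in WT 5 of 31 had none in H1047R (16.1%, against 11.0%). Between the knock-in lists 3 of 31 E545K peaks (9.68%, against 9.14%) and 2 of 30 H1047R peaks (6.67%, against 23.6%) had none. With the upper 50% of each list by area, 6 of 20 H1047R peaks had no WT partner, and with a summit -log10 p of at least 4 it was 6 of 19. The share over all peaks was not computed with these filters, so these counts cannot be set beside a background. In the full lists, member promoters made up 5 of the 7 and 4 of the 5 knock-in peaks without a WT partner.

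Away from promoters the peaks in some lists only were few. A region 45.0 kb before PCDHA1 had an area of 266 in E545K and 419 in H1047R. The region 29.9 kb past the PCDHAC2 start had 234 in WT alone, and that 9.99 kb before PCDHB2 had 251 in WT and 260 in E545K. In gamma, a region 14.0 kb past the PCDHGA12 start had 210 in WT and 258 in H1047R. A region 2.58 kb past the PCDHGC3 start had 381 in WT and 858 in H1047R. The last, over the final gamma constant exon, had 220 in E545K alone.

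Related genes outside the clusters were counted in the same way. Of 10 non-clustered protocadherins, which are single genes outside the clusters, the promoters of PCDH1, PCDH7, PCDH9 and PCDH12 were listed in each genotype and the other 6 in none, so that 0 were in some lists only, where all genes gave 4.69%. Of 19 cadherin genes with a CDH symbol, 7 had a peak in all 3 lists, where all genes gave 63.3%. CDH22 had one in E545K alone, CDH5 in WT alone, and 10 of the 19 had none. CDH1, the cadherin of epithelial junctions, had areas of 4744 (WT), 6102 (E545K) and 5481 (H1047R), and CDH3, that of basal epithelium, had 2093, 1681 and 2422.

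The regulators and partners of clustered protocadherins had promoter peaks throughout. All 21 genes for chromatin regulators of the clusters, among them CTCF and the silencer SMCHD1, had a peak in all 3 lists, against 63.3% of all genes. So did all 15 genes for partners of the cytoplasmic domains, such as the kinase FYN and the WAVE complex subunits CYFIP1 and NCKAP1. Among neighbouring genes, 8 of the 10 before the clusters and 10 of the 10 after them were listed in each genotype.

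The cell type was checked by promoter peaks of marker genes. Of 11 basal mammary markers, 10 had a peak in all 3 lists, where all genes gave 63.3%, the exception being the gene start of TP63. KRT14 was counted at small areas of 377 (WT), 320 (E545K) and 231 (H1047R). Of 4 general epithelial markers 3 had a peak in all 3 lists, the exception being EPCAM, and KRT8 and KRT18 share the same peak. Of 7 neuronal markers 1 had a peak in all 3 lists (SYT1), of 7 immune markers 2 (CD14 and CD68) and of 7 fibroblast markers 2 (COL1A1 and COL1A2). A promoter peak shows open chromatin and not expression, and RNA was not analysed here.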

How the data were processed

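Reads of both samples of a genotype were trimmed with Trim Galore 0.4.0 and cutadapt, checked with FastQC, handled with SAMtools and turned into 1 peak list on hg38 by Genrich 0.6.1, per the submitters' processing notes. For the aligner, the name was not given in the sources used. The deposited signal value is an area, that under the caller's curve over a peak, and the deposited -log10 p is that at the summit. The deposited score was not used. The deposited summit offset was used for position, and the column for q-values held no values. Whether samples are separate cultures is not stated.

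Computed here with Python 3.11.15, numpy 2.4.6 and pandas 2.3.3 were overlaps of at least 1 bp with windows of 1 kb around gene starts of GENCODE release 44, merged regions, base composition and motifs of hg38. Of 53 promoters, 52 are in RefSeq's table, and all 52 have the same letters in hg38 at RefSeq's own coordinates. This does not check the starts used here. A RefSeq start lay within 10 bp of the GENCODE start for 35 of them. Counts were checked with bedtools 2.31.1 (0 of 9 differed) and tested on simulated data. Areas describe peaks within a list only, and depth is unknown.

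Any member could be named. Values are given for members in some lists only, those with the largest and smallest peaks, C-type genes, first and last genes and peaks without a partner, and for other genes only from 6 kinds of gene list. The members and lists were chosen with earlier results of these data known, 3 motifs were added after the promoters were read, and the split of promoters at 50% GC was added after the promoter counts were seen. Alternatives were other windows, thresholds and list lengths.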

Additional observations from a re-analysis of the deposited data

How the results depend on the processing

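Patterns of all 53 members were the same with windows of 500 bp and 2 kb, with the canonical transcript start and with the summit required in the window. Of 280 values recomputed, 223 were the same and 57 moved.

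With the upper 50% of each list by area, members with a promoter peak numbered 6 in WT, 5 in E545K, 6 in H1047R and 3 in all 3 lists, where all 19111 genes gave 11549, 11516, 11665 and 11192. Members in E545K and not WT were 2, in H1047R and not WT 2, and in H1047R and not E545K 2, where all genes gave 245, 316 and 340. Peaks of the region were 16 in WT, 17 in E545K and 20 in H1047R. Those without a partner were 4 (E545K in WT), 3 (WT in E545K), 2 (WT in H1047R), 1 (E545K in H1047R), 4 (H1047R in E545K) and 6 (H1047R in WT). Here and in the settings below, no share over all peaks was computed for peaks without a partner.

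With a summit -log10 p of at least 4, members numbered 6, 6 and 6, with 4 in all 3 lists and 5 in some, where all genes gave 11510, 11234, 11611, 10998 and 890. Members in E545K and not WT were 2, in H1047R and not WT 2, and in H1047R and not E545K 1. Over all genes, 172 were in E545K and not WT, 305 in H1047R and not WT, 514 in H1047R and not E545K, 448 in WT and not E545K, and 137 in E545K and not H1047R. Region peaks were 16, 15 and 19, and those without a partner 2, 2, 2, 1, 5 and 6 in the order above. The cause was not tested.

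With lists of equal length, 1 member was in WT and not E545K and 1 in WT and not H1047R, where all genes gave 203 and 229, and 241 of all genes were in H1047R and not E545K, with 0 members. Region peaks without a partner were 2 (WT in E545K), 2 (WT in H1047R) and 1 (H1047R in E545K). With 500 bases either side of the start, member shares were 64.2% for TATAAA, 81.1% for CCAAT and 24.5% for TGANTCA, where all genes gave 27.0%, 65.5% and 17.1%.

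No paired analysis was possible because each list pools both samples of a genotype, and no fit without a replicate was run for the same reason. Depth per sample is unknown.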
